A study of Mus musculus with 2 samples.

Results

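The chemokine system of the mouse lung, leaving out Cxcl12 and its receptors Cxcr4 and Cxcr7, was compared between 2 pools of lung RNA. Members were taken by symbol: every gene of both expression tables named as a CC, CXC, CX3C or XC chemokine or receptor, without the Ccrl and Ccrn names. This gave 56 of 22072 genes, of which 38 encode ligands and 18 encode receptors. The KO pool came from mice with the genotype Pdgfb-iCreER / FoxF1 fl/fl, in which a tamoxifen-inducible Cre recombinase, expressed from Pdgfb sequences and active mainly in endothelial cells, can delete Foxf1. The control pool came from Foxf1 fl/fl mice, which carry the same floxed alleles and no Cre, so that effects of Cre and of losing Foxf1 cannot be told apart. All mice had the background strain C57/BL6. RNA from the lungs of several mice was combined for each pool, giving 1 library per genotype. The sources used here do not state how many mice, their age or sex, or when tamoxifen was given. No difference below has a replicate check. The ranges in parentheses after ratios are 95% counting intervals, which leave out differences between mice and between library preparations.

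Chemokines are small secreted proteins that direct the movement of leukocytes. They are grouped by the spacing of their first cysteines into CC, CXC, CX3C and XC families, and they act on G protein-coupled receptors named for the same families. Some are made constantly by epithelium or lymphoid stroma and place resident cells, and others are induced by injury, cytokines or interferon and call in monocytes, neutrophils or T cells. Endothelium carries many of them on its surface, where they are bound by heparan sulfate and shown to passing leukocytes.

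Levels are given as FPKM, fragments scaled to transcript length and library size, summed over the transcripts of a gene. Transcripts took an estimated 10.4 M reads in the KO library, against 13.2 M in the control library, so that 10 reads on a transcript of 1000 bases correspond to 0.784 FPKM in the KO library and 0.608 FPKM in the control library. Foxf1, listed as Foxf1a, had 15.7 FPKM in the KO pool and 72.1 FPKM in the control pool, 4.59-fold lower (3.96 to 5.33), though whether its record covers the floxed part is not known. A mean of 1 FPKM over the pools served as the floor for counts, and a gene counted as higher or lower in the KO pool when log2(FPKM + 1) differed by at least 1.5-fold. Of the 56 members, 29 were over the floor. Ccl2, Ccl7, Ccl12 and Cxcr3 passed it through the KO pool alone. The place of Ccl2, Ccl7 and Ccl12 among the higher genes, and the Cxcr3 ratio above equality, are thus in part set by the filter.

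Of these 29 members, 7 were at least 1.5-fold higher in the KO pool (24.1%), against 9.41% of the 12929 genes over the floor. The 7 were Cxcl10, Ccl8, Ccl7, Ccl2, Ccl6, Ccl12 and Cx3cr1. Ccl5 was the 1 member at least 1.5-fold lower (3.45%), against 4.63% of all genes. Among the 25 members at 1 FPKM or more in both pools, 4 were higher, which is 16% against 7.95% of all such genes, and 1 was lower, against 4.22%. The median log2 ratio of the 29 was 0.27, against 0.05 over all genes, and that of the 25 was 0.14. At a fold of 2, 3 members were higher, against 3.75% of all genes, and 0 were lower, against 1.25%. The counting interval of the plain FPKM ratio lay above 1 for 15 of the 29, against 33.2% of all genes, and below 1 for 3 of the 29 (Ccl5, Cxcl13 and Cx3cl1), against 22%. In whole-lung RNA, a change in the number of cells of a type and a change in RNA per cell cannot be told apart. With 1 library per genotype these shares are descriptions, and many members are neighbours on a chromosome.

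The counts by family and role stand against 9.41% higher and 4.63% lower over all genes, whose median log2 ratio was 0.05. Of the 13 CC ligands over the floor, 5 were higher and 1 lower, with a median log2 ratio of 0.44, and of these 5 only Ccl6 and Ccl8 were at 1 FPKM or more in both pools. Of the 6 CXC ligands, 1 was higher and 0 lower, with a median of 0.24. The 4 CC receptors and the 4 CXC receptors had 0 higher and 0 lower, with medians of 0.22 and 0.11. All 9 receptors over the floor had a median of 0.32 and the 20 ligands one of 0.24. Summed over all members, ligands had 1039 FPKM in the KO pool and 831 FPKM in the control pool, and receptors had 34.8 FPKM in the KO pool and 28.4 FPKM in the control pool.

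**Figure D1:**
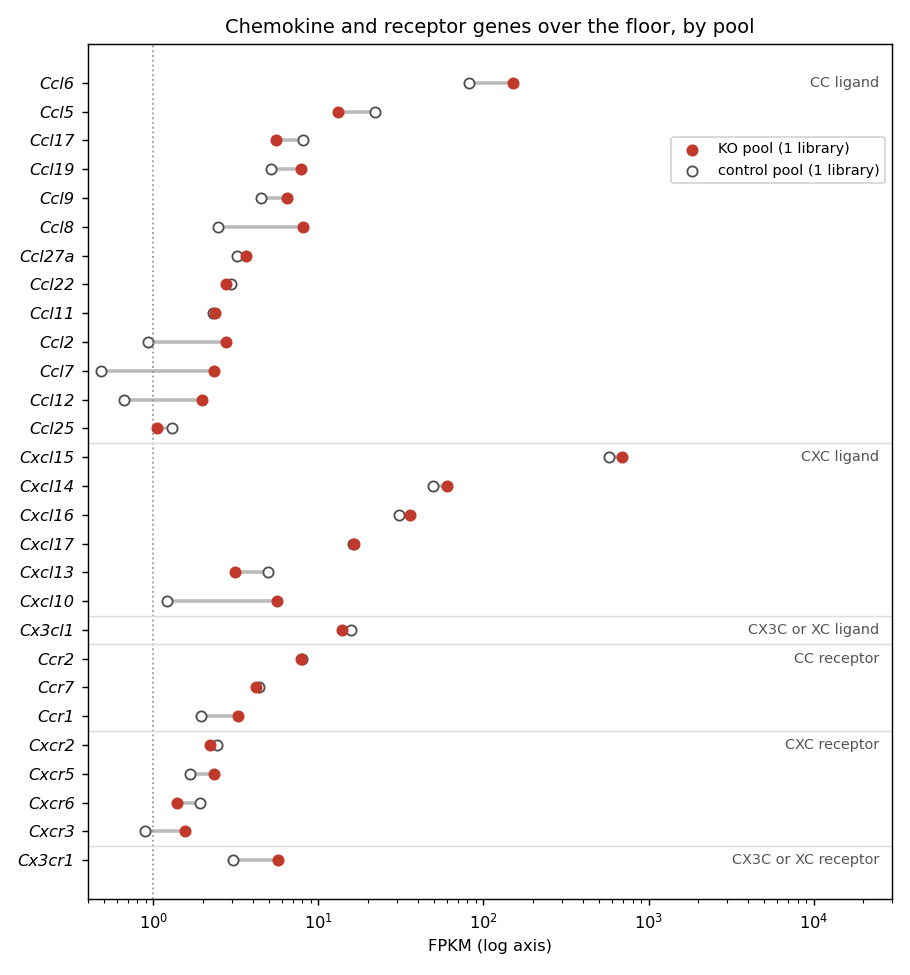
FPKM of 28 of the 29 members over the floor in the KO pool (filled) and the control pool (open), on a log axis, grouped by family and role; the dotted line marks 1 FPKM. Cxcl15 stands far above all others at 691 and 573 FPKM, and the widest gaps between pools are at Cxcl10, Ccl7, Ccl8, Ccl2 and Ccl12.

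The family was dominated by a few constitutive ligands. Cxcl15, the mouse chemokine also called lungkine and made by lung epithelium, had 691 FPKM in the KO pool and 573 FPKM in the control pool. It alone took 64.4% of the summed FPKM of the members in the KO pool and 66.7% in the control pool, and its ratio of 1.21 (1.18 to 1.23) lay within the 1.5-fold band. The same held for the other abundant CXC ligands. Cxcl14, an epithelial and stromal chemokine, had 60.0 FPKM in the KO pool and 49.2 FPKM in the control pool. Cxcl16, a transmembrane chemokine that binds CXCR6, had 36.1 FPKM in the KO pool and 31.0 FPKM in the control pool. Both were slightly higher in the KO pool, with ratios of 1.22 (1.13 to 1.31) and 1.16 (1.07 to 1.26). Cxcl17, a mucosal chemokine, had 16.5 FPKM in the KO pool and 16.3 FPKM in the control pool, level within counting error. Over all genes, 9.41% were higher and 4.63% lower. Alveolar type 2 markers, measured beside these epithelial ligands, had a median log2 ratio of -0.04 over 10 genes, with 1 higher and 0 lower. Club cell markers had a median of -0.63 over 7 genes, with 0 higher and 4 lower, while Cxcl15 and Cxcl14 were slightly higher. The part of these cells in the ligand values was not tested.

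Cxcl10 had the highest log2 ratio of the family, 1.59. This interferon-inducible ligand of CXCR3 attracts activated T cells and NK cells, and its gene lies on chromosome 5 (mm9, 92775667 to 92777880). Its level was 5.62 FPKM in the KO pool and 1.20 FPKM in the control pool, from about 76 and 21 reads, a ratio of 4.67 (2.85 to 7.97). Its neighbours on chromosome 5 were near or at 0. Cxcl9, induced mainly by interferon gamma, had 0.372 FPKM in the KO pool and 0.412 FPKM in the control pool, and Cxcl11 was listed at 0 in both. The receptor Cxcr3, found on T and NK cells, had 1.55 FPKM in the KO pool and 0.894 FPKM in the control pool, a ratio of 1.74 (0.982 to 3.05) that spans equality. Cxcl10 lies within the mm9 interval of Art3, a gene of the ADP-ribosyltransferase family, which had 15.1 FPKM in the KO pool and 8.24 FPKM in the control pool. The sources used here do not state whether counting used strand, and a share of Art3 reads in the Cxcl10 value was not tested. The ratio of Art3 was 1.83, and the ratios of these genes do not show how reads were divided between them.

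Genes known to act upstream of Cxcl10 were measured as a list of 13, of which 12 were over the floor. Irf7, a transcription factor that is itself interferon-induced, was the 1 gene at least 1.5-fold higher, with 23.1 FPKM in the KO pool and 9.45 FPKM in the control pool. The remaining 11 were within 1.5-fold and the list's median was 0.18. A count of 1 in 12 is near the 9.41% higher over all genes. Irf1, a factor downstream of interferon gamma, had the lowest ratio, with 38.4 FPKM in the KO pool and 53.1 FPKM in the control pool. The receptor gene Ifngr1, the most abundant of the list, was 1.27-fold lower (1.20 to 1.34).

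The promoters of Cxcl10, Ccl8 and Ccl12 are shown because these are the genes over the floor with ratios near or above 3 for which a RefSeq window was matched. Ccl2 and Ccl7 had none. Cxcl10 is a textbook target of interferon and NF-kB. Each sequence is the RefSeq window of 250 bases before and 50 bases after the gene's start on GRCm38.p6, a newer build than the mm9 of the expression tables, written 5′ to 3′ along the gene. Capitals mark matches, on either strand, to 4 motifs. The core of the interferon-stimulated response element (ISRE) was searched as GAAA repeated after 2 bases of any kind. The NF-kB motif was GGGA, then 2 bases of any kind, a T, 1 base of any kind and a pair of C. AP-1 was TGANTCA and the TATA box was TATAAA, with N for any base.
Cxcl10, chr5:92348840-92349139, minus strand: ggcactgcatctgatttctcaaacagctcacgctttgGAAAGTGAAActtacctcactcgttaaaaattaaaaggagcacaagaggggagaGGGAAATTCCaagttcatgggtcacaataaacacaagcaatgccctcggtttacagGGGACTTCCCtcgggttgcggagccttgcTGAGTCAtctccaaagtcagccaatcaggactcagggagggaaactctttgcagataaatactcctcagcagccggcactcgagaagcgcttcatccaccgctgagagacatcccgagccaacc
Ccl8, chr11:82114935-82115234, plus strand: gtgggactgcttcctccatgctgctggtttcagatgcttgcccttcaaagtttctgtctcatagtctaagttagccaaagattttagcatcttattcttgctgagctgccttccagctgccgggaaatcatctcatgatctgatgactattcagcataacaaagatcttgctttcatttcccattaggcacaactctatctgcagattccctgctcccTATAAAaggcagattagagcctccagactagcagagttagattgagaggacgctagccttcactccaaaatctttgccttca
Ccl12, chr11:82101595-82101894, plus strand: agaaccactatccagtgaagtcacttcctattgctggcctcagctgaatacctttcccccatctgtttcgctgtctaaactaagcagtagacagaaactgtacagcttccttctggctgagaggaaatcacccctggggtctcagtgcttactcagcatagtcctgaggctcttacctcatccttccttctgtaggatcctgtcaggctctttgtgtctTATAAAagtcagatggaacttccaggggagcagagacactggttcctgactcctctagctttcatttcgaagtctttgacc

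In the Cxcl10 window, counted from 1 at its 5′ end, the ISRE core stands at bases 38 to 47, NF-kB matches at 92 to 101 and 148 to 157, and the AP-1 match at 177 to 183. The marked motifs do not overlap each other. The Ccl8 and Ccl12 windows hold a TATA box at bases 219 to 224 and 220 to 225 and none of the other 3 motifs. RefSeq windows were matched for 40 of the 56 members, in 47 windows. The ISRE core was found in 3 of the 47 (Ccl19, Cxcl10 and Cxcl14), against 3.44% of all 32851 windows. The NF-kB letters were in 7 of the 47, against 4.01% of all, and those genes were Ccl1, Ccr3, Ccr6, Cxcl1, Cxcl10, Cxcl2 and Cxcl3. AP-1 letters were in 10 of the 47, against 7.81%, and TATAAA in 12, against 13.6%. Some members have several windows, Ccl27b with 4, and a match describes letters, not binding.

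Of the monocyte chemoattractant genes, Ccl8 was at 1 FPKM or more in both pools, while Ccl2, Ccl7 and Ccl12 reached it in the KO pool alone. Ccl2, Ccl7 and Ccl12 encode ligands of CCR2, which brings monocytes out of the marrow and into tissue, and the mouse Ccl8 product acts on CCR8. Ccl8 had 8.11 FPKM in the KO pool and 2.48 FPKM in the control pool, from about 53 and 21 reads, a ratio of 3.28 (1.93 to 5.69). Ccl2 had 2.78 FPKM in the KO pool and 0.935 FPKM in the control pool, from about 29 and 12 reads, a ratio of 2.97 (1.54 to 6.71). All levels were low, and the intervals are wide. Ccl7 had 2.34 FPKM in the KO pool and 0.480 FPKM in the control pool, from about 24 and 6 reads, a ratio of 4.87 (2.06 to 15.4). Ccl12 had 1.98 FPKM in the KO pool and 0.662 FPKM in the control pool, from about 14 and 6 reads, a ratio of 2.99 (1.09 to 9.56). Summed, the 4 genes had 15.2 FPKM in the KO pool and 4.55 FPKM in the control pool.

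These 4 genes lie in a cluster of 6 on chromosome 11 (mm9, 81849079 to 81993314), in the order Ccl2, Ccl7, Ccl11, Ccl12, Ccl8 and Ccl1. Ccl11, the eosinophil chemoattractant eotaxin, sits between Ccl7 and Ccl12 and was level, with 2.37 FPKM in the KO pool and 2.31 FPKM in the control pool. Ccl1, a ligand of CCR8, was listed at 0 in the KO pool and at 0.119 FPKM in the control pool, from about 1 read. The cluster thus held 4 genes counted as higher, 1 level gene and 1 gene too low to compare, against 9.41% higher over all genes. Of the 4, Ccl8 alone was at 1 FPKM or more in both pools, so the count is in part set by the filter.

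The neighbouring cluster of 5 genes (mm9, 83339281 to 83478185) was split. Ccl6, a CC chemokine of rodents made by macrophages and other myeloid cells, was the most abundant CC ligand. It had 151 FPKM in the KO pool and 81.9 FPKM in the control pool, from about 2766 and 1935 reads, a ratio of 1.84 (1.74 to 1.96). Its relative Ccl9, a CCR1 ligand, had 6.47 FPKM in the KO pool and 4.49 FPKM in the control pool, a ratio of 1.44 (1.20 to 1.74) within the 1.5-fold band. Ccl5, also called RANTES and made by T and NK cells, went the other way. It had 13.1 FPKM in the KO pool and 21.9 FPKM in the control pool, 1.68-fold lower (1.29 to 2.17). Ccl3, a macrophage inflammatory protein gene, had 0.570 FPKM in the KO pool and 0.369 FPKM in the control pool, and its partner Ccl4 had 0.474 FPKM in the KO pool and 0.551 FPKM in the control pool. The last 2 rest on 6 reads or fewer in each pool, and no difference was detectable at this depth.

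**Figure D2:**
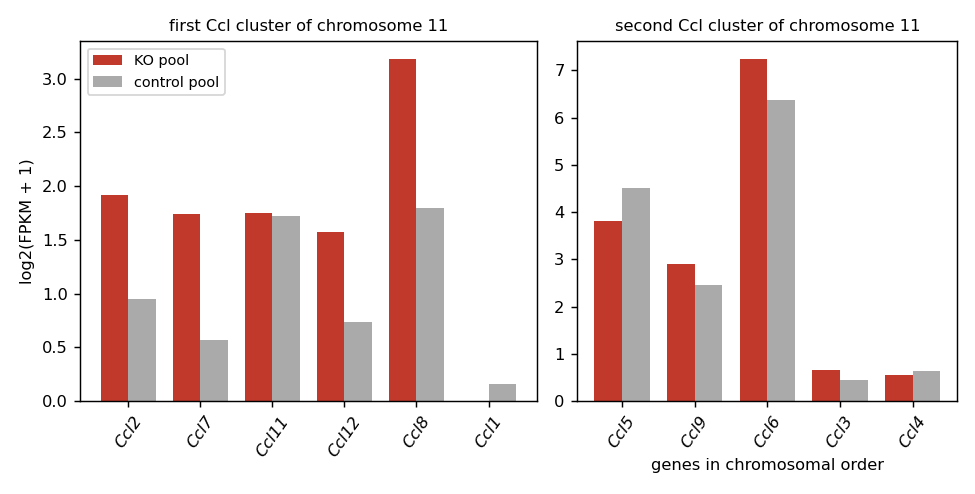
log2(FPKM + 1) of neighbouring members in chromosomal order, KO pool (red) left of control pool (grey), for the chromosome 11 ligand clusters; the vertical scales differ. In the first cluster Ccl2, Ccl7, Ccl12 and Ccl8 are taller in the KO pool and Ccl11 is level, and in the second Ccl6 and Ccl5 differ in opposite directions.

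Among receptors for these ligands, Ccr2 was level and Ccr1 had a ratio above equality. Ccr2, the receptor of inflammatory monocytes, had 7.88 FPKM in the KO pool and 7.93 FPKM in the control pool, a ratio of 0.993 (0.864 to 1.14). Cx3cr1, the fractalkine receptor of patrolling monocytes and tissue macrophages, was the 1 receptor of 9 over the floor that was counted as higher, a share near that of all genes. It had 5.73 FPKM in the KO pool and 3.04 FPKM in the control pool, a ratio of 1.88 (1.55 to 2.27). Ccr1, a receptor of monocytes and neutrophils for CCL3, CCL5 and CCL9, had 3.27 FPKM in the KO pool and 1.96 FPKM in the control pool. Its plain ratio was 1.67 (1.26 to 2.22), which shrinks to a log2 ratio of 0.53 on the log2(FPKM + 1) scale and so stays under the fold of 1.5. Ccr1 and Ccr2 lie in a cluster of 8 receptor genes on chromosome 9 (mm9, 123676329 to 124041922), where 4 were over the floor and none was counted as higher or lower. Cx3cl1, the membrane-bound fractalkine ligand made by endothelium and epithelium, had 13.9 FPKM in the KO pool and 15.8 FPKM in the control pool. It was 1.14-fold lower (1.02 to 1.27), while its receptor was higher. Cx3cl1 shares a cluster on chromosome 8 (mm9, 97269584 to 97335936) with the CC ligand genes Ccl22 and Ccl17, and the 3 genes together had 22.2 FPKM in the KO pool and 26.8 FPKM in the control pool.

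**Figure D3:**
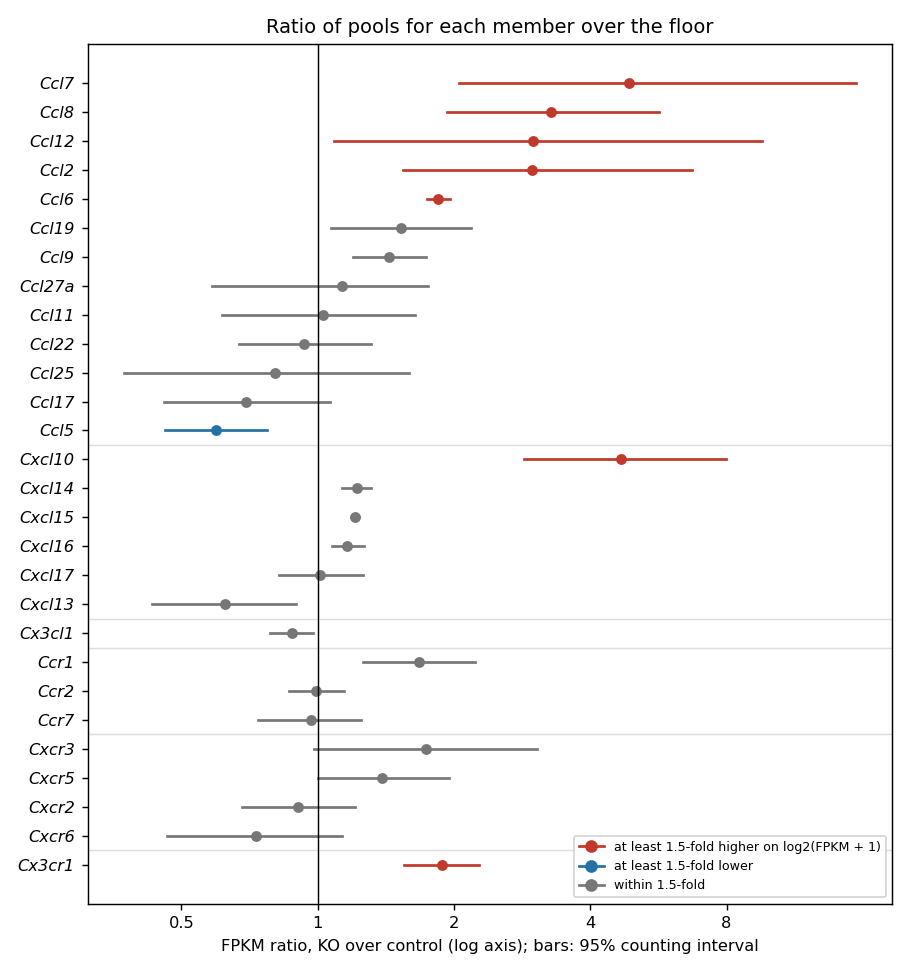
Plain FPKM ratio of the KO pool over the control pool for 28 of the 29 members over the floor, on a log axis, with 95% counting intervals, grouped by family and role as in the plot of FPKM by member. Cxcl10 and Ccl7 lie furthest to the right at 4.67 and 4.87, and Ccl5 is the 1 gene counted as lower.

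Lymphoid tissue chemokines differed in both directions. Ccl19, a ligand of CCR7 made in T cell zones, had 7.86 FPKM in the KO pool and 5.14 FPKM in the control pool, a ratio of 1.53 (1.07 to 2.18). Its value is the sum of 2 records with the same transcript accession at separate positions of chromosome 4, each with the same FPKM. Cxcl13, which draws B cells into follicles through CXCR5, had 3.11 FPKM in the KO pool and 4.98 FPKM in the control pool, 1.60-fold lower (1.11 to 2.33). On the log2(FPKM + 1) scale both stayed within 1.5-fold, at 0.53 and -0.54. Ccr7, the receptor for CCL19 and CCL21, had 4.19 FPKM in the KO pool and 4.34 FPKM in the control pool. Cxcr5 had 2.33 FPKM in the KO pool and 1.68 FPKM in the control pool, a ratio of 1.39 with an interval from just above equality to 1.95. The 3 Ccl21 genes, known from lymphatic endothelium, were listed at 0 in both pools in all 12 of their records, of which 8 had the status LOWDATA. These are near-identical copies, and a listed 0 may be a failed estimate, so no level is given. Lymphatic endothelial markers had a median log2 ratio of 0.24, with 3 of 5 genes above 0. Lyve1, a hyaluronan receptor gene of this list, was the 1 lower gene, with 33.0 FPKM in the KO pool and 194 FPKM in the control pool. Prox1, also on the list, was under the floor, at 0.341 FPKM in the KO pool and 0.265 FPKM in the control pool. The part of lymphatic endothelium in the values of Lyve1 and of the other genes of this list was not tested.

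The ligands of the T cell chemokine receptor CCR4, which come mostly from dendritic cells and macrophages, gave values level with or below the control pool. Ccl17 had 5.57 FPKM in the KO pool and 8.04 FPKM in the control pool, 1.44-fold lower with an interval that spans equality (0.941 to 2.19). Ccl22 had 2.75 FPKM in the KO pool and 2.95 FPKM in the control pool. Ccr4 itself was under the floor, at 0.218 FPKM in the KO pool and 0.189 FPKM in the control pool. Cxcr6, the CXCL16 receptor of T and NK cells, had 1.40 FPKM in the KO pool and 1.92 FPKM in the control pool, 1.37-fold lower (0.883 to 2.15). It shares its mm9 interval with Fyco1, an autophagy adaptor gene, which had 7.05 FPKM in the KO pool and 9.46 FPKM in the control pool. The CCR10 ligand gene Ccl27a, whose records overlap Il11ra1, had 3.62 FPKM in the KO pool and 3.20 FPKM in the control pool. Ccl25, the CCR9 ligand, had 1.05 FPKM in the KO pool and 1.30 FPKM in the control pool. Each of these genes had an interval that spans equality.

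The neutrophil chemokine genes Cxcl1, Cxcl2, Cxcl3 and Cxcl5 were close to the detection limit. These 4 genes encode ligands of the neutrophil receptor CXCR2. They summed to 1.64 FPKM in the KO pool and 1.14 FPKM in the control pool, from about 24 and 22 reads. Cxcl2 alone differed in this set, with 0.395 FPKM in the KO pool from about 5 reads and 0.00639 FPKM in the control pool, which is less than 1 read. Cxcr2 had 2.21 FPKM in the KO pool and 2.44 FPKM in the control pool, a ratio of 0.904 (0.682 to 1.21). Cxcr1, the second neutrophil receptor of this kind, had 0.545 FPKM in the KO pool and 0.121 FPKM in the control pool, from about 8 and 2 reads.

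The 27 members under the floor included 7 listed at 0 in both pools: the 3 Ccl21 genes, Ccl26, Ccl27b, Ccr1l1 and Cxcl11. The other 20 had at most 0.650 FPKM in either pool and at most 37 reads. That highest value belonged to Ccr6, the receptor of B cells and T helper cells for CCL20, at 0.650 FPKM in the KO pool and 0.258 FPKM in the control pool, split over 7 transcript records. Its ligand Ccl20 was listed at 0 in the KO pool and had 0.325 FPKM in the control pool, from about 4 reads. The receptor Xcr1, which marks cross-presenting dendritic cells, had 0.401 FPKM in the KO pool and 0.509 FPKM in the control pool, and its ligand Xcl1 had 0.422 FPKM in the KO pool and 0.437 FPKM in the control pool. Ccr8 had 0.217 FPKM in the KO pool from about 3 reads and 0.0562 FPKM in the control pool from about 1. The eosinophil receptor gene Ccr3, read in the same chromosome 9 cluster, had 0.0281 FPKM in the KO pool and 0.0443 FPKM in the control pool. For Ccr9, the CCL25 receptor of gut-homing T cells, the values were 0.220 FPKM in the KO pool and 0.289 FPKM in the control pool. For Ccr10, the receptor of CCL27 and CCL28, they were 0.431 FPKM in the KO pool and 0.377 FPKM in the control pool. In 18 of these 20 genes the counting interval of the ratio spanned equality, the exceptions being Cxcl2 and Cxcr1.

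**Figure D4:**
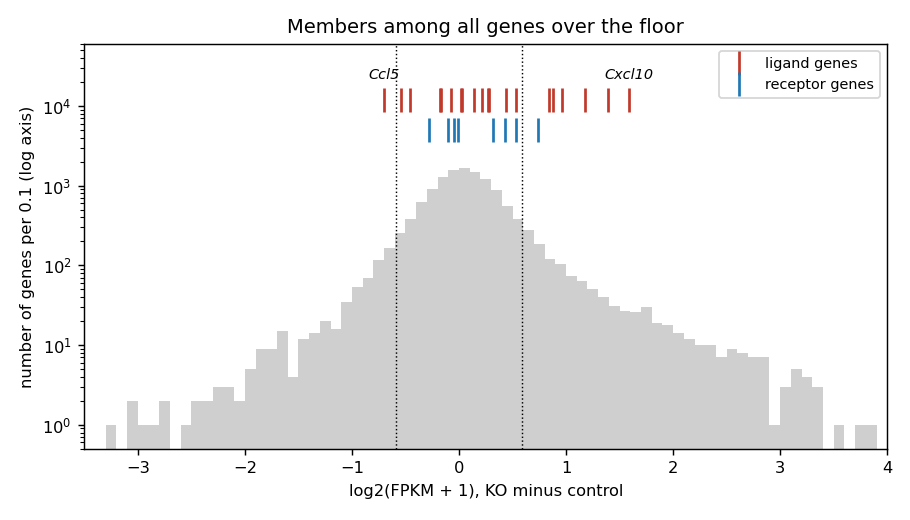
Number of genes per 0.1 of the log2 ratio (grey, log axis) for the 12929 genes over the floor, with the ligand genes (red ticks) and 8 of the 9 receptor genes (blue ticks) above; dotted lines mark a fold of 1.5. The 20 ligands spread from Ccl5 at -0.70 to Cxcl10 at 1.59, and the receptors from Cxcr6 at -0.28 to Cx3cr1 at 0.73.

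Chemokine genes that the symbol rule leaves out were measured as a separate list, with 9 genes over the floor. Of these, 1 was higher and 3 were lower, against 9.41% higher and 4.63% lower over all genes. The 3 lower genes were Ccrl1, Ppbp and Ccbp2. Ccrl1, which passed the floor through the control pool alone and encodes the atypical receptor that removes CCL19, CCL21 and CCL25, had 0.449 FPKM in the KO pool and 2.87 FPKM in the control pool, 6.39-fold lower (3.54 to 12.9). Ccbp2, the atypical receptor that clears inflammatory CC chemokines such as CCL2, had 12.3 FPKM in the KO pool and 24.0 FPKM in the control pool, 1.95-fold lower (1.74 to 2.17). Ccrl2, which binds chemerin, had 20.1 FPKM in the KO pool and 21.4 FPKM in the control pool. The CXC chemokine gene Ppbp of platelets had 9.09 FPKM in the KO pool and 24.9 FPKM in the control pool, 2.74-fold lower (2.24 to 3.37). Pf4, the other platelet chemokine, had 17.4 FPKM in the KO pool and 12.5 FPKM in the control pool. Cklf, the chemokine-like factor gene, was the highest of the list, with 7.69 FPKM in the KO pool and 4.04 FPKM in the control pool. Rarres2, the chemerin gene and the most abundant of the list, had 112 FPKM in the KO pool and 111 FPKM in the control pool.

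The genes that carry the receptor signal had a share of higher genes near the 9.41% of all genes. Of 28 genes over the floor for G proteins, arrestins, receptor kinases and downstream regulators, 2 were higher and 0 lower, with a median of 0.14. Arrb1, the beta-arrestin 1 gene, was the lowest, with 35.1 FPKM in the KO pool and 49.7 FPKM in the control pool. Gnai2, the inhibitory G protein through which most of these receptors signal, was the most abundant, with 288 FPKM in the KO pool and 208 FPKM in the control pool. Genes that cleave chemokines or hold them on heparan sulfate had 6 higher and 1 lower among 21 over the floor, with a median of 0.24, against 9.41% higher and 4.63% lower over all genes. Mmp8, the neutrophil collagenase, was the highest, with 4.17 FPKM in the KO pool and 1.12 FPKM in the control pool. Ctss, the cathepsin S gene, was the most abundant and among the 6, with 144 FPKM in the KO pool and 92.3 FPKM in the control pool. Dpp4, the protease that trims the ends of several chemokines, was the 1 lower gene, with 17.0 FPKM in the KO pool and 27.5 FPKM in the control pool.

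Markers of the cells that make or follow chemokines also differed between the pools. The shares over all genes, against which each count below stands, were 9.41% higher and 4.63% lower. Interstitial macrophage markers were higher for 7 of 11 genes over the floor and lower for 0, with 632 summed FPKM in the KO pool and 443 in the control pool. They ran from Cd163, at 2.55 FPKM in the KO pool and 2.15 FPKM in the control pool, to the folate receptor gene Folr2, at 5.16 FPKM in the KO pool and 1.38 FPKM in the control pool. These values stand beside the higher Cx3cr1, Ccl6 and Ccl8, and their part in those results was not tested. Neutrophil markers were higher for 5 of 11 and lower for 0, with 112 summed FPKM in the KO pool and 77.6 in the control pool, beside a level Cxcr2, and their part in the chemokine values was not tested. S100a8, the most abundant of them, had 36.6 FPKM in the KO pool and 25.9 FPKM in the control pool. Monocyte markers were higher for 2 of 12 and lower for 1, beside a level Ccr2. The lower gene was Ace, at 76.2 FPKM in the KO pool and 257 FPKM in the control pool, which capillary endothelium also expresses.

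NK cell markers were lower for 2 of 8 and higher for 0, with 25.2 summed FPKM in the KO pool and 36.2 in the control pool, beside the lower Ccl5. The 2 were the granzyme genes Gzma, at 8.04 FPKM in the KO pool and 12.6 FPKM in the control pool, and Gzmb, at 1.17 FPKM in the KO pool and 2.37 FPKM in the control pool. T cell markers had 0 higher and 0 lower of 11, with a median of -0.11, and 40.1 summed FPKM in the KO pool against 45.1 in the control pool. No marker of either list was at 0 in both pools, and the part of these cells in the Ccl5 value was not tested. B cell markers had 1 higher and 0 lower of 8, beside a Cxcl13 ratio below equality and a Cxcr5 ratio above it. Dendritic cell markers had 0 higher and 1 lower of 7, the lower being the cross-presentation receptor gene Clec9a, at 4.91 FPKM in the KO pool and 9.32 FPKM in the control pool. Alveolar macrophage markers had 2 higher and 4 lower of 11, from Marco, at 15.4 FPKM in the KO pool and 3.81 FPKM in the control pool, to Car4, at 37.1 FPKM in the KO pool and 122 FPKM in the control pool. Car4 is also an endothelial gene of the lung.

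Fibroblast markers were higher for 5 of 10 and lower for 1, and mesothelial markers were higher for 3 of 7 and lower for 0. Lung endothelial markers had 2 higher and 3 lower of 12, with a median of 0.07. Lymphatic markers had 0 higher and 1 lower of 5. Of the mast cell, basophil and eosinophil list only Kit was over the floor, at 16.4 FPKM in the KO pool and 47.3 FPKM in the control pool. With the other genes of the list under the floor, the Kit value is not read as a result for these cells. Of the lymph node and thymus list only Ltb was over the floor, at a log2 ratio of -0.02, and 2 of its genes were at 0 in both pools.

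**Figure D5:**
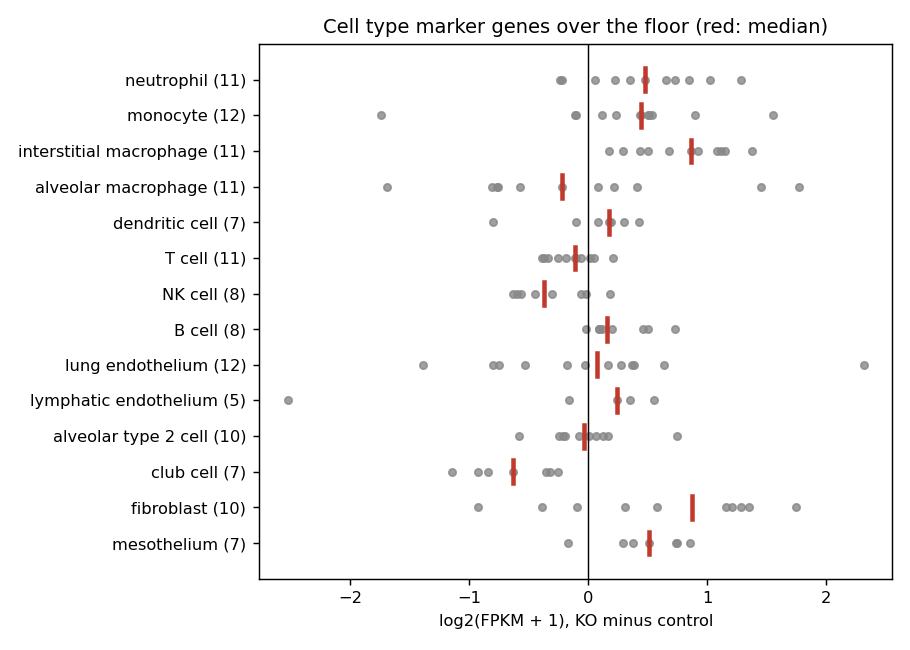
log2 ratio of each marker gene over the floor (grey points), KO minus control, for 14 cell type lists, with the number of genes in parentheses and the median as a red bar. Interstitial macrophage markers all lie above 0 with a median of 0.87, and NK cell markers have a median of -0.37.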

How the data were processed

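Lung RNA of 2 mouse pools was sequenced, with 1 library per genotype. The authors deposited FPKM values per RefSeq transcript and, per the file headers, a coverage signal, which counts how often each transcript base was read on average. The submitters' processing notes name mm9 as genome build and list DESeq with no role. The aligner and quantifier were not given in the sources used here. FPKM divides by the library total, and reads of near-identical genes can be divided differently between libraries.

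FPKM was summed per gene symbol (28107 records, 22072 genes). Log2 ratios used a pseudocount of 1, which understates differences of low genes; ratios in parentheses are plain FPKM ratios. Approximate reads are coverage times length divided by the bases 1 read adds, 47.6 in the KO library and 47.5 in the control library. The 95% intervals are exact conditional (Clopper-Pearson) intervals on these reads, cover counting error only, and were tested on simulated data. No p-values were computed, since each genotype has 1 library.

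Each member over the floor is named, those under it where one pool reached the floor or where they pair with a named ligand or receptor, and from each list the highest, lowest and most abundant gene, except that 1 member and 1 list gene are not reported here; further list genes and members under the floor were named after their values were seen. For cell type lists with no bearing on a member's result, counts alone are given. Members and lists were chosen with earlier results of these data known. Starts count from 1. Motifs were searched in RefSeq promoter windows. Analyses used Python 3.11.15, pandas 2.3.3 and scipy 1.17.1.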

Additional observations from a re-analysis of the deposited data

How the results depend on the processing

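No paired analysis was possible because each genotype has 1 library, and for the same reason no replicate could be left out. The count of members at least 1.5-fold higher in the KO pool was 7 of 29, against 9.41% of all genes. It was 10 of 29 with a pseudocount of 0.1, where Ccl19, Ccr1 and Cxcr3 joined, against 11.8%. With a pseudocount of 3 it was 4 of 29, against 6.39%. With a floor of 5 FPKM it was 2 of 12, against 8.20%, and at a fold of 2 it was 3 of 29, against 3.75%. The count of lower members was 1 of 29, against 4.63% of all genes. It was 2 with a pseudocount of 0.1, against 6.71%. It was also 2 under each of the 3 other scalings, against 5.53% to 6.10%. In these settings Cxcl13 joined Ccl5. At a fold of 2 it was 0, against 1.25%. The median log2 ratio of the members was 0.0428 with no floor, against 0.03 over all genes there; across the other settings it lay between 0.18 and 0.28. Both counts were unchanged with the largest transcript alone. They were also unchanged with records of status OK alone and with near-identical copies summed, but those settings could not change them. The member records left out or added there were at 0 in both pools. Ccl6 and Ccl8 were counted as higher under each setting at a fold of 1.5; Ccl2, Ccl7, Ccl12, Cxcl10 and Cx3cr1 were not under each. The sign of a member's ratio could change only with the scaling or the records used. Ccl11 and Cxcl17, both level, turned slightly negative under the 3 scalings, and the other 27 members kept their sign. Depth limits the low members: Ccl7 and Ccl12 rest on about 6 reads in the control pool.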
